A study of Mus musculus with 3 samples.

Results

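The genes described here encode the enzymes, carriers and regulators that take glucose to lactate (the glycolytic route), its oxidative branch to pentoses (the pentose phosphate route), and the entry of pyruvate into the citrate cycle with the cycle's own enzymes. They were a list of 39 symbols, 24 in the glycolytic route, 6 in the pentose phosphate route and 9 in pyruvate dehydrogenase and the citrate cycle. Each was taken as a row of a table of 27389 mouse gene clusters in which a listed symbol was among the aliases, and all 39 were found. RNA had been sequenced from CAD cells, a mouse catecholaminergic neuroblastoma line, 72 h after transfection. One library came from cells given siRNAs against Ptbp1 and Ptbp2 together (below, both siRNAs), one from cells given siRNAs against Ptbp1 alone, and one from cells given control siRNAs. All were ON-TARGETplus siRNAs delivered with Lipofectamine 2000 into the same tumour line, and poly(A)+ RNA was read. Each group had 1 library, so no difference below has a replicate check and no p-value is given.

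As background, glycolysis splits glucose into pyruvate in the cytosol. Neural tumour cells, like many dividing cells, send much of that pyruvate to lactate and export it. Most steps have isozymes from separate genes that differ in tissue distribution and regulation. The pentose phosphate route makes NADPH and ribose from glucose 6-phosphate, and the citrate cycle oxidises the acetyl group that pyruvate dehydrogenase makes in mitochondria. PTBP1, the RNA-binding protein targeted here, is known to act on the Pkm transcript, where it favours the embryonic-type over the muscle-type pyruvate kinase isoform. The read values used here sum over all isoforms of a gene, so those forms cannot be told apart.

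Several of these genes have processed copies elsewhere in the genome, and that bears on what a read value means. The share of each gene's 36-base exon words (36 bases being the read length) that occur once in the mm9 genome was 100% or close to it for most members. It was 18.6% for Gapdh, 7.78% for Pgk1, 6.92% for Pgam1, 43.6% for Pkm2 and 49.9% for Eno1. Between these lay Pdhb at 53.1%, Gpi1 at 58.3%, Ldha at 63.3%, Ldhb at 64.1%, Tpi1 at 67.2%, Aldoa at 76.2%, Taldo1 at 80.1% and G6pdx at 87.45%. The range is illustrated by exon words chosen for their counts. The Gapdh word (chromosome 6, chr6:125112935-125112970, minus strand, mm9) is its coding word with the most exact matches in the genome, 115. The word of Tpi1, its neighbour in the pathway (chr6:124761367-124761402, minus strand), was taken from the coding words with 1 match. Tpi1 also has repeated words, since 67.2% of its words occur once. No base is in capitals, since the words are shown whole.
Gapdh: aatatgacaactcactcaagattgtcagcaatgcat
Tpi1: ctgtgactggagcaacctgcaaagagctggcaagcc
Gapdh, which encodes the glyceraldehyde phosphate dehydrogenase used as a loading control in many assays, was listed with 187 reads after both siRNAs, 348 after Ptbp1 siRNA and 354 in the control library. Tpi1, the gene of triosephosphate isomerase, had 10444, 16959 and 20792 reads in the same order. Per kilobase of exon the control library held 18.5 CPM (the read count scaled to library size) for Gapdh and 839 CPM for Tpi1. The levels of Gapdh, Pgk1 and Pgam1, the 3 members with the fewest single words, lay between 18.5 and 67.1 CPM per kilobase in that library. The part of repeated sequence in these low values was not tested. No conclusion is therefore drawn from these levels beside those of other genes, although they are included in the route sums below. The differences of these 3 genes between libraries are given with the same reserve.

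**Figure D1:**
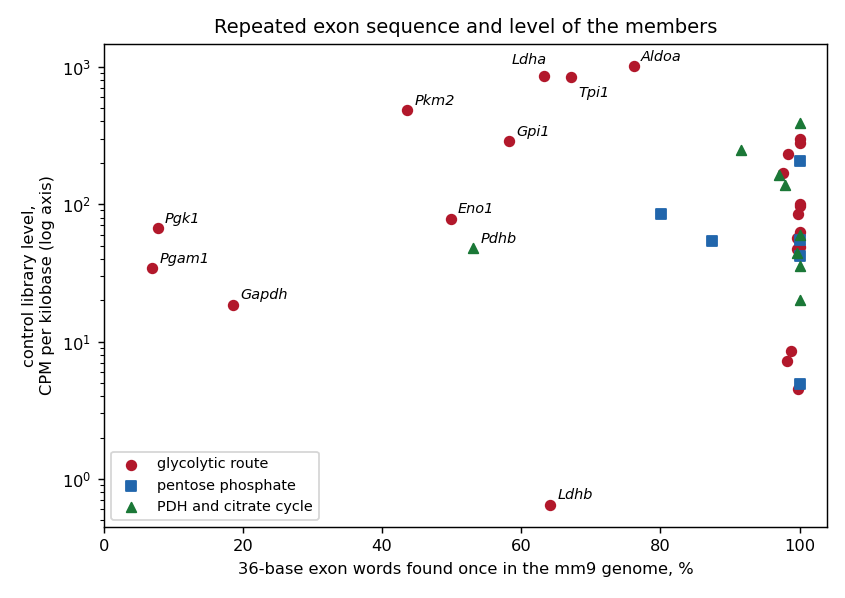
Share of 36-base exon words that occur once in the mm9 genome (horizontal axis, percent) and level in the control library (vertical axis, CPM per kilobase, log scale) for the 39 members, 1 point per gene. Gapdh, Pgk1 and Pgam1 stand apart at under 20%, while Aldoa, Ldha and Tpi1 are the highest members at 76.2%, 63.3% and 67.2%.

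Symbols with several rows needed a choice. Of the 2 rows for Eno1, the higher is a copy on chromosome 18 annotated as Gm5506, with 3686 reads after both siRNAs, 5937 after Ptbp1 siRNA and 7165 in the control library. The row at the Eno1 gene itself, on chromosome 4, had 2250, 3927 and 4574 reads and was used. The higher of the 2 rows for Pdk1 is Pdpk1, a signalling kinase gene that shares the alias, with 1597, 1874 and 1588 reads. The row of the pyruvate dehydrogenase kinase gene on chromosome 2 was used in its place. For Gapdh, Pgls and Tkt the highest row was the gene itself.

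Gene clusters held 14242557 reads after both siRNAs, 16899510 after Ptbp1 siRNA and 16011365 in the control library, so 1 CPM stood for 14.4, 17.2 and 15.5 reads. Th and Dbh, which encode enzymes of catecholamine synthesis and mark this type of neuroblastoma, reached 1 CPM in each library. The summed level of markers of any other cell type examined was at most 21.9 CPM. That was endothelium, at 11.6 CPM after both siRNAs, 16.7 after Ptbp1 siRNA and 21.9 in the control library, mostly Pecam1, while Kdr had 3, 1 and 0 reads. Fibroblast markers summed to 5.12, 6.70 and 9.46 CPM, mostly Col1a1 (48, 88 and 122 reads), with Col1a2 at 0 reads in each library. These sums run in the same order as most glycolytic genes, and their part in the results was not tested. None of the blood, liver and pluripotency markers reached 1 CPM in any library. Ptbp1 itself was 4.41-fold lower after both siRNAs (95% counting interval 4.17 to 4.66) and 5.35-fold lower after Ptbp1 siRNA (5.06 to 5.66) than in the control library. Ptbp2 RNA was 1.15-fold lower after both siRNAs (1.04 to 1.28) and 3.51-fold higher after Ptbp1 siRNA (3.25 to 3.80) than in the control library. Between the knockdown libraries it was 4.04-fold lower after both siRNAs than after Ptbp1 siRNA (3.71 to 4.41). Differences are on the log2(CPM + 1) scale, folds are CPM ratios, and intervals are exact intervals of the read ratio that cover counting error only. Clusters with at least 1 CPM in either library of a pair were tested. A tested cluster was called by size when its difference was at least 1 in size and its interval excluded 1. In bulk RNA, fewer cells with a transcript and less of it per cell cannot be told apart.

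The carriers that bring glucose in and take lactate out were among the members that differed most. Slc2a3, which encodes the neuronal glucose transporter GLUT3 (chr6:122677845-122692538, mm9), had 5654 reads after both siRNAs, 11797 after Ptbp1 siRNA and 16143 in the control library. Against the control it was 2.65-fold lower after both siRNAs (2.57 to 2.74) and 1.51-fold lower after Ptbp1 siRNA (1.48 to 1.55). The general glucose transporter gene Slc2a1 (chr4:118781374-118809933), whose product is GLUT1, had 1571, 3168 and 3840 reads. Its level was lower by 2.27-fold after both siRNAs (2.14 to 2.41) and by 1.34-fold after Ptbp1 siRNA (1.28 to 1.40). Slc16a3, the gene of the lactate exporter MCT4 (chr11:120809799-120819779), had 3259, 7144 and 9421 reads, lower by 2.69-fold (2.58 to 2.80) and 1.46-fold (1.41 to 1.503) in that order. Of its exon bases 15.6% are shared with Csnk1d, and the protocol records no strand-marking step, so reads of overlapping genes cannot be told apart. The other monocarboxylate carrier, Slc16a1 (MCT1), had 2566, 3052 and 3344 reads and differed far less, by 1.21-fold in each knockdown library (1.15 to 1.28 after both siRNAs, 1.15 to 1.27 after Ptbp1 siRNA). Thus 3 of the 4 carriers were called lower after both siRNAs, where 2.65% of all clusters tested were, and none after Ptbp1 siRNA, where 0.433% were.

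In the preparatory steps, Hk1 and Hk2 encode hexokinases, which trap glucose as glucose 6-phosphate, and Gpi1 the isomerase that follows. Hk2 had 2696 reads after both siRNAs, 3843 after Ptbp1 siRNA and 4869 in the control library, differences of -0.74 and -0.48 from the control. Hk1 lay at -0.56 and -0.28, and Gpi1, with 16.5% of its exon bases shared with Gm17327, at -0.52 and -0.22. None of the 3 was called against the control, where 3.74% of all clusters were called either way after both siRNAs and 0.709% after Ptbp1 siRNA. Phosphofructokinase, the committed step, has 3 subunit genes that behaved differently. Pfkl, the liver-type gene (chr10:77450017-77472495), had 3648, 7763 and 10389 reads, a level lower by 2.65-fold after both siRNAs (2.55 to 2.75) and by 1.48-fold after Ptbp1 siRNA (1.44 to 1.52). The platelet-type Pfkp had 8603, 11459 and 11855 reads, at -0.36 and -0.19. The muscle-type Pfkm had 2206, 3078 and 2777 reads, at -0.23 after both siRNAs and 0.00 after Ptbp1 siRNA.

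Aldolase, which cleaves fructose bisphosphate, included the member with the largest difference after both siRNAs. Aldoc, the aldolase gene of brain (chr11:78136683-78140263), had 632 reads after both siRNAs, 1582 after Ptbp1 siRNA and 2698 in the control library. It was 3.97-fold lower after both siRNAs (3.64 to 4.33) and 1.89-fold lower after Ptbp1 siRNA (1.77 to 2.01). Aldoa, the widely expressed aldolase gene (chr7:133938751-133943894), had 9171, 14775 and 25945 reads. In the control library its 1014 CPM per kilobase ranked 25 among all clusters. It was 2.63-fold lower after both siRNAs (2.57 to 2.69) and 1.94-fold lower after Ptbp1 siRNA (1.90 to 1.98), the largest difference of any member in that library.

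Of the steps after aldolase, Tpi1 lay at -0.89 after both siRNAs and -0.44 after Ptbp1 siRNA. Pgk1, for phosphoglycerate kinase, had 966, 1976 and 1878 reads, at -0.84 and -0.07, and Pgam1, for phosphoglycerate mutase, 576, 839 and 976 reads, at -0.64 and -0.36. Gapdh lay at -0.77 and -0.16. These last 3 rest on largely repeated sequence. The neuronal enolase gene Eno2 (chr6:124710074-124719528) had 3028, 5929 and 6840 reads and was 2.10-fold lower after both siRNAs (2.01 to 2.19), just inside the size limit at -1.07, and 1.28-fold lower after Ptbp1 siRNA (1.23 to 1.32). The general enolase gene Eno1 lay just outside it at -0.91, and -0.36 after Ptbp1 siRNA. The Gm5506 row gave -0.85 and -0.41, close to those of Eno1. Pkm2, the symbol the table uses for the muscle pyruvate kinase gene Pkm, had 12535, 18544 and 23513 reads, at -0.80 and -0.49.

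Lactate dehydrogenase reads were almost wholly those of Ldha, which encodes the subunit common in lactate-making tissues. Ldha had 15153 reads after both siRNAs, 23234 after Ptbp1 siRNA and 23309 in the control library, at -0.52 and -0.15. Ldhb, the subunit gene of heart and oxidative tissues, had 12, 17 and 13 reads, stayed under 1 CPM in each library and was the 1 member that did not pass the filter. The regulators were low and differed little. Pfkfb3 and Pfkfb4 encode bifunctional enzymes that set fructose bisphosphate signalling to phosphofructokinase, and Pdk1 a kinase that inhibits pyruvate dehydrogenase. Pfkfb3 had 585, 653 and 644 reads, with differences of -0.03 and -0.12 and read ratio intervals that included 1. Pfkfb4 had 179, 253 and 251 reads, at -0.36 and -0.12, and Pdk1 567, 788 and 778 reads, at -0.34 and -0.12.

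**Figure D2:**
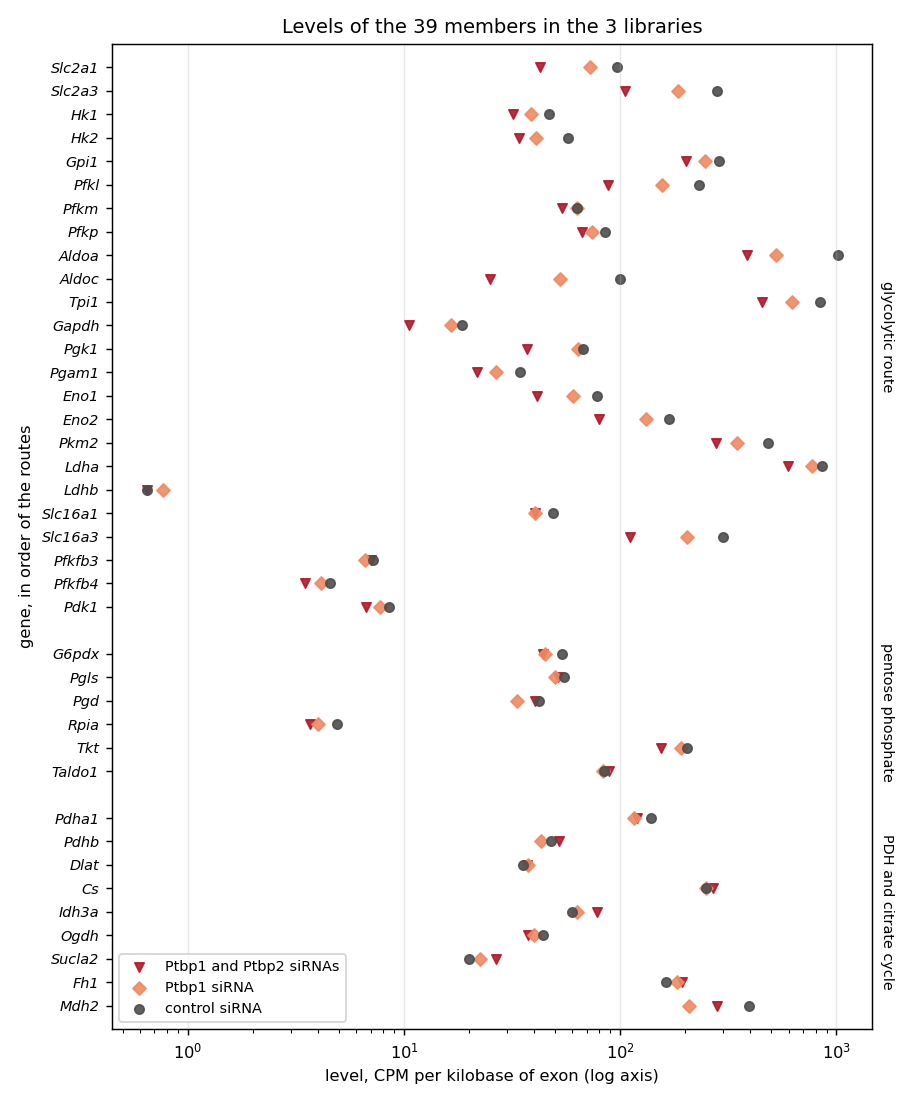
Level of each of the 39 members in the 3 libraries (horizontal axis, CPM per kilobase of exon, log scale), 1 library per group and therefore no error bars. In the glycolytic route the points for both siRNAs lie mostly left of those for Ptbp1 siRNA and the control, as for Aldoc at 25.1, 52.8 and 99.5, while in the citrate cycle group they lie on both sides of the control, as for Idh3a at 78.2, 62.9 and 60.1 and Mdh2 at 279, 208 and 392.

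The pentose phosphate genes differed less. Glucose 6-phosphate dehydrogenase (G6pdx) starts the oxidative branch, which lactonase (Pgls) and phosphogluconate dehydrogenase (Pgd) complete. G6pdx had 1655 reads after both siRNAs, 2009 after Ptbp1 siRNA and 2178 in the control library, at -0.29 and -0.26. Pgls had 1230, 1430 and 1423 reads, at -0.10 and -0.14, and Pgd 1295, 1277 and 1448 reads, at -0.05 and -0.32. Of their exon bases 13.6% in G6pdx and 20.6% in Pgls are shared with Ikbkg and Fam129c. In the nonoxidative branch, which exchanges carbon between sugars, Tkt (transketolase) was the most abundant gene, with 7113, 10563 and 10191 reads, at -0.41 and -0.09. Rpia, the isomerase that makes ribose 5-phosphate, had 275, 356 and 395 reads, at -0.40 and -0.28. Taldo1 (transaldolase) had 1561, 1745 and 1594 reads, at 0.07 and -0.01. None of these 6 genes was called in any pair. Of all clusters tested 3.74% were called either way after both siRNAs and 0.709% after Ptbp1 siRNA, against the control. Between the knockdown libraries 0.431% were.

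Most genes of pyruvate dehydrogenase and the citrate cycle were close to or above their control level. Pdha1, Pdhb and Dlat, the genes of the first 2 components of pyruvate dehydrogenase, lay at -0.21, 0.12 and 0.05 after both siRNAs and at -0.25, -0.15 and 0.07 after Ptbp1 siRNA. Citrate synthase (Cs), which starts the cycle, had 10925 reads after both siRNAs, 12136 after Ptbp1 siRNA and 10938 in the control library, at 0.10 and 0.01. Idh3a, a subunit gene of the NAD-dependent isocitrate dehydrogenase, had 2904, 2776 and 2400 reads and was 1.30-fold higher after both siRNAs (1.23 to 1.37). Sucla2, a subunit gene of succinyl-CoA ligase, had 1115, 1130 and 905 reads and was 1.33-fold higher (1.21 to 1.45). The fumarase gene Fh1 had 4370, 4927 and 4001 reads, at 0.23 and 0.16, and Ogdh, for oxoglutarate dehydrogenase, 3754, 4771 and 4752 reads, at -0.23 and -0.14.

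Mdh2, the gene of mitochondrial malate dehydrogenase (chr5:136254520-136266257, mm9), had the largest difference of its group after Ptbp1 siRNA. It had 5171 reads after both siRNAs, 4571 after Ptbp1 siRNA and 7809 in the control library. It was lowest after Ptbp1 siRNA alone, at 1.89-fold below the control (1.82 to 1.96), and 1.40-fold below it after both siRNAs (1.35 to 1.45). Between the knockdown libraries it was 1.35-fold higher after both siRNAs (1.29 to 1.40). All of its 36-base exon words occur once in the genome and it shares no exon bases with an annotated gene. In all, 3 of the 9 members of the group had their lowest level after Ptbp1 siRNA, as did 2907 of all 13465 clusters tested. Mdh1, the cytosolic malate dehydrogenase gene, lay at 0.02 and -0.01. Idh1 and Idh2, isocitrate dehydrogenase genes outside the members, lay at -0.52 and -0.66 after both siRNAs and at -0.61 and -0.58 after Ptbp1 siRNA. Of the 25 tested genes of that related list, 16 lay below 0 after Ptbp1 siRNA and 9 above it, where 50.6% of all clusters lay below 0.

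**Figure D3:**
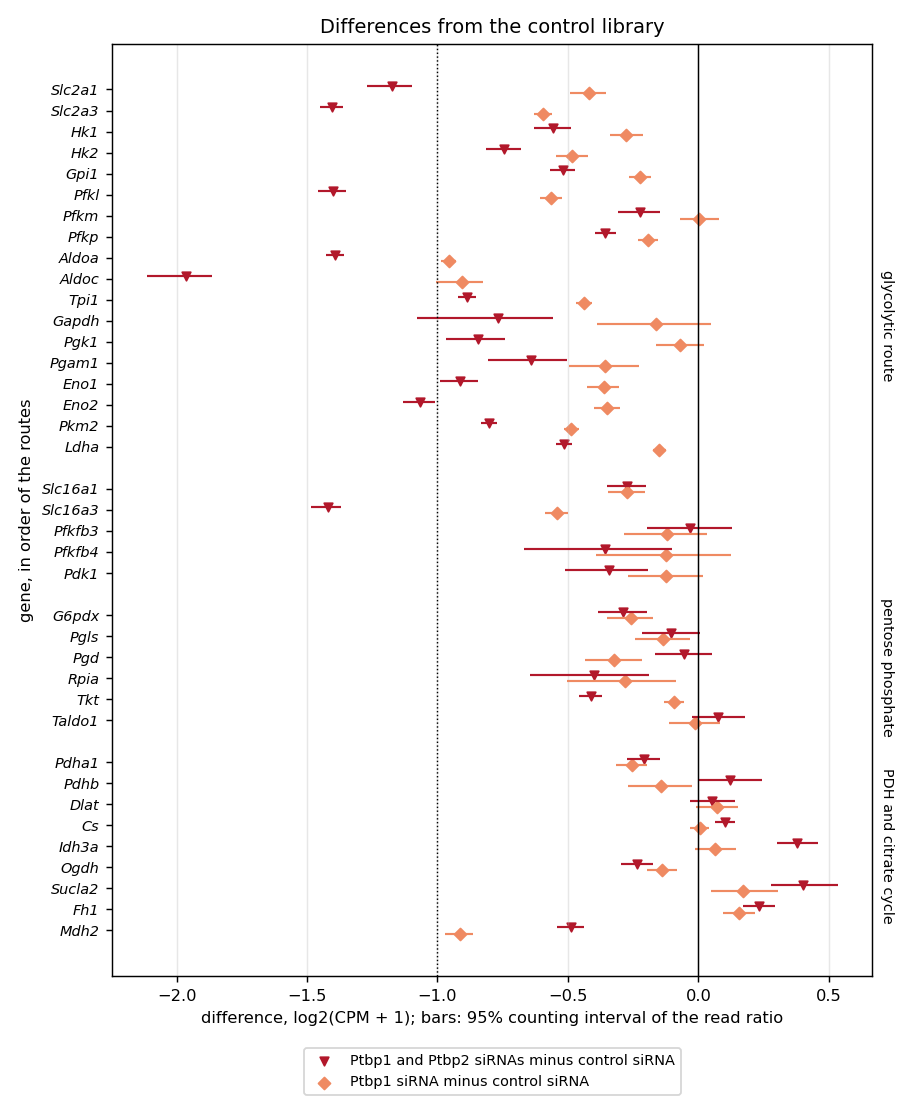
Difference from the control library of the 38 members that passed the filter (horizontal axis, log2(CPM + 1) scale), for both siRNAs (triangles) and for Ptbp1 siRNA (diamonds), with the 95% counting interval of the read ratio as bars and the limit of -1 dotted. Triangles of 7 glycolytic genes lie left of the dotted line, and Mdh2 is the citrate cycle gene with its diamond far left, at -0.91.

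Counted by route, 7 of the 23 glycolytic genes tested were called lower after both siRNAs (Slc2a1, Slc2a3, Slc16a3, Pfkl, Aldoa, Aldoc and Eno2), and no pentose phosphate or citrate cycle gene was called in either direction. Over the 38 members that is 7 lower and 0 higher, where 2.65% of the 13465 clusters tested were called lower and 1.08% higher (3.74% either way). At the smaller limit of 1.5-fold, 14 members were lower and 0 higher, where 9.83% and 7.44% of all clusters were. All 23 glycolytic genes lay below 0, where 50.5% of clusters did, although Pfkfb3 lay above 0 with library-total scaling and in the deposited RPKM. In the pentose phosphate route 5 of 6 lay below 0, Pgd being above it under those same alternatives, and in the citrate cycle group 3 of 9. The median difference was -0.77 in the glycolytic route, -0.20 in the pentose phosphate route and 0.10 in pyruvate dehydrogenase and the citrate cycle, against -0.00 over all clusters. Without the 5 members whose exon words are mostly repeated the glycolytic median was -0.65, and all 7 called genes are among those kept.

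After Ptbp1 siRNA alone no member was called, where 0.433% of 13399 clusters were called lower and 0.276% higher (0.709% either way). At 1.5-fold 4 members were lower (Aldoa, Mdh2, Aldoc and Slc2a3) and none was higher, where 3.36% and 2.99% of all clusters were. The medians were -0.35, -0.20 and 0.01 in the order glycolytic, pentose phosphate and citrate cycle. Of the glycolytic genes 22 of 23 lay below 0, where 50.6% of clusters did, Pfkm being at 0.00 and on the other side of 0 with median-of-ratios scaling. All 6 pentose phosphate genes lay below 0, except that Taldo1 was above it with library-total scaling and in the deposited RPKM. This comparison and the previous one share the control library, so their values are not independent of each other.

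Both siRNAs against Ptbp1 siRNA alone is a pair without the control. Aldoc, with 632 reads against 1582, was 2.10-fold lower (1.92 to 2.31) and was the 1 member called, a call lost with a pseudocount of 5 CPM, where 0.342% of 13463 clusters were called lower and 0.0891% higher (0.431% either way). At 1.5-fold 8 members were lower and 0 higher, where 3.54% and 1.83% of clusters were. Those 8 were Slc2a1, Slc2a3, Slc16a3, Pfkl, Aldoc, Eno2, Pgk1 and Gapdh, of which the last 2 rest on repeated sequence. Of the glycolytic genes 21 of 23 lay below 0, where 50.6% of clusters did, Slc16a1 joining them with library-total scaling and in the deposited RPKM. The pentose phosphate median was 0.00 and that of the citrate cycle group 0.10, against -0.37 in the glycolytic route.

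The order of the 3 levels was also counted. In 20 of the 23 glycolytic genes the level was lowest after both siRNAs, intermediate after Ptbp1 siRNA and highest in the control library, an order held by 29.2% of all clusters tested. It held in 3 of 6 pentose phosphate genes and in 1 of 9 citrate cycle genes, Ogdh, while 4 of those 9 had the opposite order, as did 3790 of all 13465 clusters. The difference between routes was not tested. Some of these orders rest on near-equal values, as for Slc16a1, which had 40.1 CPM per kilobase in both knockdown libraries. The 24 glycolytic genes together held 0.666% of reads after both siRNAs, 0.907% after Ptbp1 siRNA and 1.18% in the control library. Their summed level per kilobase was 0.526 of the control after both siRNAs and 0.725 of it after Ptbp1 siRNA. For the pentose phosphate genes these ratios were 0.859 and 0.917, and for the citrate cycle group 0.947 and 0.836. Mdh2, with 279, 208 and 392 CPM per kilobase, was the most abundant gene of that group after both siRNAs and in the control library, and Cs after Ptbp1 siRNA.

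Isozymes were compared within each library as shares of reads per kilobase, which no scaling between libraries affects. The shares do depend on the exonic length used for each gene, which the intervals take as fixed. The clearest shift was in phosphofructokinase. Pfkl made up 42.2% of the step after both siRNAs (95% counting interval 41.3 to 43.1), 53.3% after Ptbp1 siRNA (52.6 to 53.99) and 61.1% in the control library (60.5 to 61.7). Pfkm had 25.9%, 21.5% and 16.6% in the same order, and Pfkp 31.9%, 25.2% and 22.3%. The length used for Pfkp was 9002 bases, while 3614 exon words were counted for it. By reads alone Pfkp exceeded Pfkl in each library. It had 8603 against 3648 after both siRNAs, 11459 against 7763 after Ptbp1 siRNA and 11855 against 10389 in the control library. Which of these genes had the largest share with other lengths was not tested. Among the monocarboxylate carriers Slc16a3 held 73.4% after both siRNAs (72.3 to 74.4), 83.5% after Ptbp1 siRNA (82.95 to 84.1) and 85.9% in the control library (85.5 to 86.4). In aldolase the share of Aldoc was 6.10% after both siRNAs (5.65 to 6.58), 9.17% after Ptbp1 siRNA (8.75 to 9.62) and 8.93% in the control library (8.61 to 9.26), so Aldoa dominated throughout.

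The other steps kept shares within a few points. Hk2 held 51.65% of hexokinase after both siRNAs, 51.3% after Ptbp1 siRNA and 54.9% in the control library (53.9 to 55.9). Slc2a3 held 71.2%, 71.9% and 74.2% of the 2 glucose transporters. Pfkfb3 held 66.9% (63.0 to 70.6), 61.5% (57.9 to 64.9) and 61.3% (57.8 to 64.8) of its pair, intervals that overlap. Ldhb was 0.108%, 0.0997% and 0.0760% of lactate dehydrogenase, also with overlapping intervals. The enolase share depended on the Eno1 row used. Eno2 held 65.8%, 68.4% and 68.2% of the step with the Eno1 gene itself, but 36.5%, 41.1% and 40.0% with the Gm5506 row in its place.

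**Figure D4:**
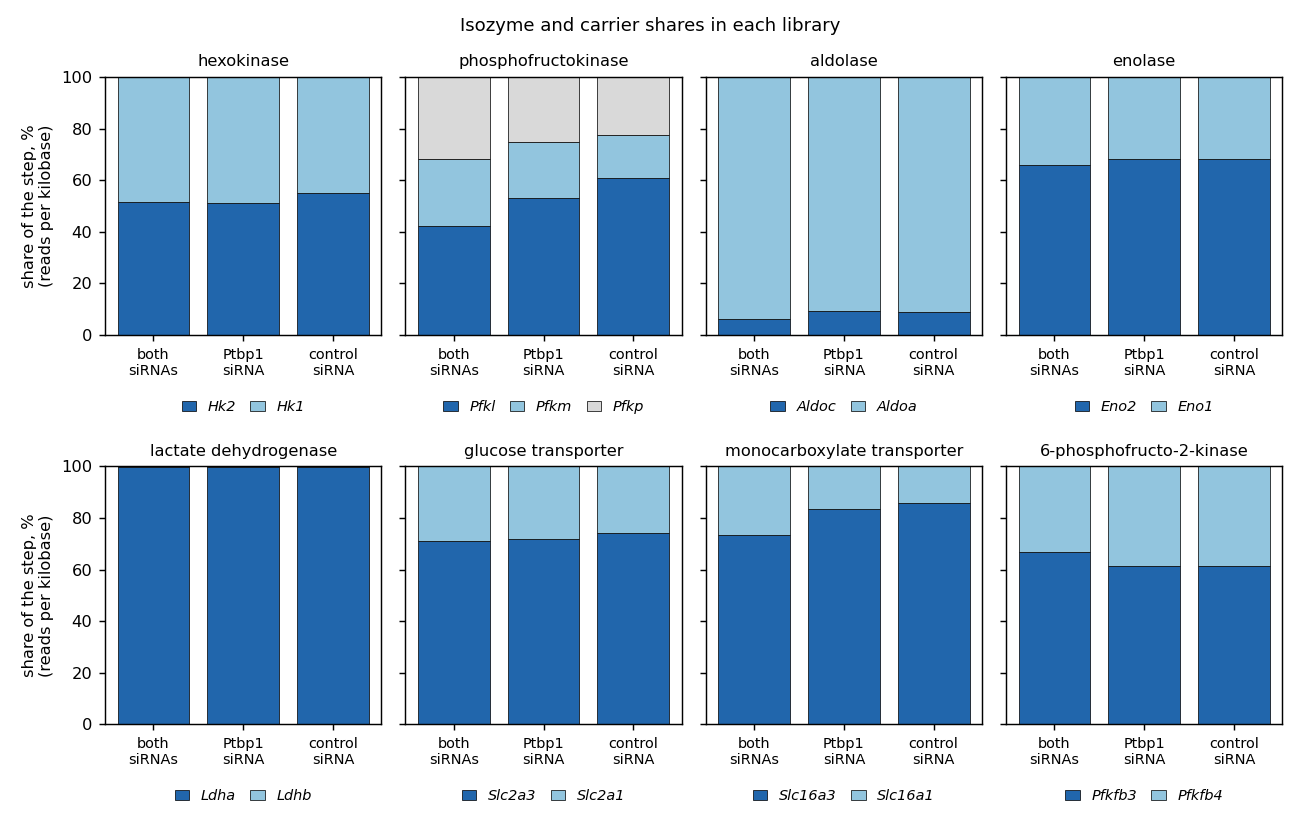
Share of each isozyme or carrier in 8 steps (vertical axis, percent of reads per kilobase), with 1 bar per library in the order both siRNAs, Ptbp1 siRNA and control siRNA. The Pfkl part of the phosphofructokinase bar is 42.2%, 53.3% and 61.1%, and the Slc16a3 part of the monocarboxylate carrier bar 73.4%, 83.5% and 85.9%.

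Because the glycolytic genes lay on the same side of the control, the stretches around their transcription starts were looked up. The words ACGTG and GCGTG, the core bound by hypoxia-inducible factors, a family known to act on glycolytic genes, were searched on both strands in the 300 bases from 250 before to 50 after each RefSeq start of the GRCm38.p6 build. Of the 39 members 37 had such a promoter in the table. The 4 members that differed most after both siRNAs were Aldoc, Slc16a3, Slc2a3 and Pfkl. The first listed promoter of 3 of them is printed, with that of Mdh2, which had its lowest level after Ptbp1 siRNA. Capitals mark each match of the 2 words on either strand. The positions are those of Aldoc at chr11:78322823-78323122 on the plus strand, Slc16a3 at chr11:120948817-120949116 on the plus strand, Pfkl at chr10:78009758-78010057 on the minus strand and Mdh2 at chr5:135778399-135778698 on the plus strand.
Aldoc: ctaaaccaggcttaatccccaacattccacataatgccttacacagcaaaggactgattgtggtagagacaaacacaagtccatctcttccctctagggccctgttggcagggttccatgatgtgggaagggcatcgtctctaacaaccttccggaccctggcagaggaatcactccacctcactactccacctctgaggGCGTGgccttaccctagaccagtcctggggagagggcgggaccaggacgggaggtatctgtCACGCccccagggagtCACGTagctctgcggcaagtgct
Slc16a3: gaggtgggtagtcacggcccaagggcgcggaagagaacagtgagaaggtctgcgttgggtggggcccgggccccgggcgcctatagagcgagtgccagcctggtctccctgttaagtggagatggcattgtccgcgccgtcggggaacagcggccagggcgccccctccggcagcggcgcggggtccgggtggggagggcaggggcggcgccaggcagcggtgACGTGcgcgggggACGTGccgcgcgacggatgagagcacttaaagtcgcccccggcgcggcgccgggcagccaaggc
Pfkl: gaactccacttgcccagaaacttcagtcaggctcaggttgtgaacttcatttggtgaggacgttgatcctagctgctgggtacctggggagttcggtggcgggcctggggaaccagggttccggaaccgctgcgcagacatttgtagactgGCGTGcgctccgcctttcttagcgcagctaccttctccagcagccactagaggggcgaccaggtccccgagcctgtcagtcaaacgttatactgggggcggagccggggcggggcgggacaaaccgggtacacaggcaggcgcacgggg
Mdh2: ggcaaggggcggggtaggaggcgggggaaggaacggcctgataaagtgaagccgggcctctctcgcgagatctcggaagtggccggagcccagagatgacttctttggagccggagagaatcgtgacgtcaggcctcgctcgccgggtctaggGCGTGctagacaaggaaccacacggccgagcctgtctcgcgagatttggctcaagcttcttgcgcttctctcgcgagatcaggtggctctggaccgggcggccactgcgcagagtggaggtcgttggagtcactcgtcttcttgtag
Matches numbered 3 in the Aldoc promoter, 2 in that of Slc16a3, 1 in that of Pfkl and 1 in that of Mdh2. Eno2, also called lower, had none in its window. At least 1 promoter with either word was found for 20 of 23 glycolytic genes, 6 of 6 pentose phosphate genes and 5 of 8 citrate cycle genes, and for 46.7% of all 27025 genes in the table. Counted per promoter, 77.8% of 36, 85.7% of 7 and 76.9% of 13 held one, where 43.8% of all 32851 promoters did. A gene with several starts counts more than once there, and its windows can overlap. Those of Ogdh at chr11:6291347-6291646 and chr11:6291356-6291655 are nearly the same stretch. The members' promoters were richer in G and C, with medians of 61.2%, 60.7% and 61.0% against 52.7% over all promoters. The part of base composition in these counts was not tested, and a match of 5 letters is not a binding site.

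Other genes of the same routes were looked up from lists of known pathway genes. Of 18 tested genes of glycolysis and lactate handling outside the members, 2 were called lower and 0 higher after both siRNAs, where 2.65% and 1.08% of all clusters were, and the median difference was 0.07. Slc2a10 and Slc2a4, glucose transporter family genes, were at -1.48 (6 reads after both siRNAs, 46 in the control library) and -1.12 (57 and 152 reads). Slc2a8, another member of the family, was at -0.95, and Hkdc1, a hexokinase-like gene, at 0.94 on 33 reads against 11. Bsg, the gene of basigin, which carries monocarboxylate carriers to the membrane, had 13091, 23008 and 26382 reads, at -0.90 and -0.34. Minor isozyme genes such as Eno3, Pfkfb1, Pfkfb2 and Pklr lay between -0.04 and 0.10 on 99 reads or fewer after both siRNAs and in the control library. Hkdc1 was the 1 gene called higher of the 17 of this list tested after Ptbp1 siRNA, where 0.276% of all clusters were. It lay just inside the limit at 1.04, on 43 reads against 11.

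Of 5 tested pentose phosphate genes outside the members, 1 was called lower after both siRNAs, where 2.65% of all clusters were. It was Pgm2, a phosphoglucomutase family gene that acts on pentoses, with 175 reads after both siRNAs, 366 after Ptbp1 siRNA and 636 in the control library, a difference of -1.68. Rbks, the ribokinase gene, was at 0.64, Prps1 at 0.30 and Rpe at -0.15. Among 25 tested genes of pyruvate metabolism and the citrate cycle the median was -0.03 and 1 was called lower, a share close to the 2.65% of all clusters. That was Pdk2, a pyruvate dehydrogenase kinase gene, with 53, 79 and 158 reads, at -1.26. Acly, which returns citrate to cytosolic acetyl-CoA, was at -0.94, Idh2 at -0.66 and Pcx, for pyruvate carboxylase, at -0.64. Succinate dehydrogenase genes stayed near the control, Sdha at -0.17 and Sdhb at 0.16.

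**Figure D5:**
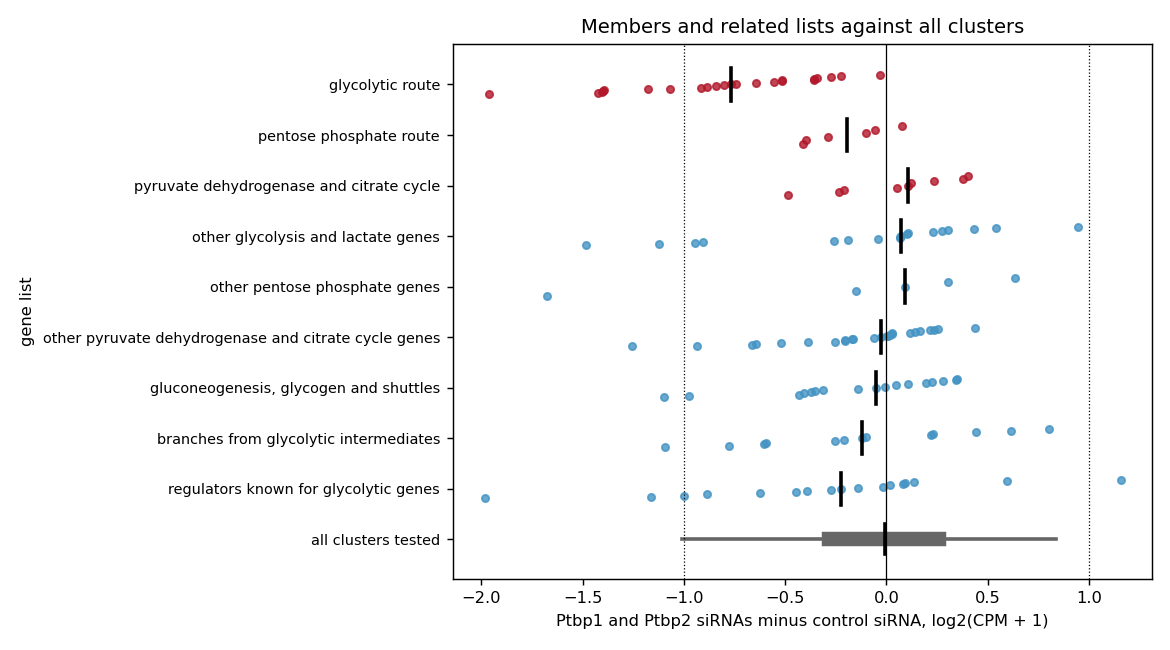
Differences between both siRNAs and control siRNA (horizontal axis, log2(CPM + 1) scale) for the tested genes of the 3 routes (red) and of 6 related lists (blue), 1 point per gene, with each median as a black tick. The grey bars give the central 50% and 95% of all 13465 clusters tested, and the glycolytic median of -0.77 is the lowest of the lists shown, the others lying between -0.22 and 0.10.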

How the data were processed

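Poly(A)+ RNA of 3 CAD cell cultures was read as 36-base pairs, per the labels' protocols. The deposited table holds whole-number read counts and RPKM for each cluster, with an exonic length (mm9, per the submitters' processing notes). Aligner and counter are not given in the sources used here. Of 27389 clusters 38 held a value below 0 in at least 1 library, so the authors had subtracted something unstated. They were left out, with 127 clusters without a length, which left 27224. The other values were treated as counts, although they are net reads. TMM scaling (trimming 30% on M and 5% on A) gave factors of 1.01, 1.02 and 0.970 (both siRNAs, Ptbp1 siRNA, control). Calls and intervals were computed over the whole table with numpy 2.4.6 and scipy 1.17.1 and tested on simulated data. Clusters are not merged by symbol. Exon overlaps and 36-base words came from GENCODE and the mm9 genome. Members, lists and rules were chosen with earlier results of these data known. All members were named, and of the other lists the called genes and up to 4 with the largest differences after both siRNAs, while further genes were named after their values were seen. The share intervals hold the other isozymes' lengths fixed. Amplified reads are not independent molecules, and a limit of 3 counts stands for 0.208, 0.175 and 0.193 CPM in the libraries. A count over the whole marker list of the cell line is not reported here.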

Additional observations from a re-analysis of the deposited data

How the results depend on the processing

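With 1 library per group neither a library could be left out nor a batch separated, and counting error is the limit that depth sets. No paired analysis was possible because each group has 1 library. The 7 glycolytic genes called lower after both siRNAs numbered between 5 and 7 under the alternatives that kept the 2-fold limit, and no called member changed sign. Leaving out clusters that share exon bases removed Slc2a1 and Slc16a3, and in the deposited RPKM Eno2 was just short of the limit. Of 1545 values recomputed, 1423 stayed within their limits and 122 moved. Uncalled members near 0 did change sign: Ldhb, Pfkfb3 and Pgd (both siRNAs against control), Taldo1 (Ptbp1 siRNA against control) and Slc16a1 (between the knockdown libraries) with library-total scaling or the deposited RPKM, Pfkm with median-of-ratios scaling, and Pdk1 with the highest row or, after Ptbp1 siRNA, summed rows. Slc16a1 did so also without clusters that share exon bases. Over the whole table (both siRNAs against control, Ptbp1 siRNA against control, both against Ptbp1 siRNA) calls moved as follows. A pseudocount of 0.1 CPM gave 359 higher and 534 lower in the first pair, 165 higher and 134 lower in the second, 88 higher and 168 lower in the last. A pseudocount of 5 CPM gave 45 higher and 171 lower, 4 and 26, and 1 and 9, and then 0 members were called between the knockdown libraries. A filter of 5 CPM gave 23 higher in the second pair and 6 in the last. The deposited RPKM gave 83 higher and 167 lower, 13 and 35, and 7 and 19. A limit of 1.5-fold gave 1002 higher and 1324 lower, 401 and 450, and 246 and 476, with 14, 4 and 8 members lower. The median of the citrate cycle group became 0.17 and 0.072 with library-total scaling and 0.16 and 0.064 with the deposited RPKM, in the first 2 pairs. Without clusters that share exon bases it was 0.16 between the knockdown libraries, and the pentose phosphate median after both siRNAs was -0.054. Without members of mostly repeated words, an alternative chosen after seeing the data, the glycolytic median was -0.65 against the control and -0.33 between the knockdown libraries. The Eno2 share was 33.4%, 37.2% and 36.5% (both siRNAs, Ptbp1 siRNA, control) with rows summed and 36.5%, 41.1% and 40.0% with the highest row, also chosen after seeing the data. The cause of these shifts was not tested beyond what each alternative changes by construction.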

Other observations

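Branches that leave glycolysis were read as a list of 13 genes. After both siRNAs 1 of them was called lower, where 2.65% of all clusters were, the median difference was -0.12, and 5 lay above 0, as did 6661 of all 13465 clusters. Uap1, a late enzyme of UDP-N-acetylglucosamine synthesis, had 1137 reads after both siRNAs, 1680 after Ptbp1 siRNA and 2624 in the control library, a 2.14-fold lower level after both siRNAs (2.00 to 2.30). Pgm3 and Gfpt1, of the same pathway, were at -0.78 and -0.60, Gfpt2 at -0.25 and Gnpnat1 at 0.23. Pgm3 shares 31.4% of its exon bases with Dopey1. The highest differences of the list were those of Shmt1, at 0.80 (838, 813 and 510 reads), and Psph, at 0.61, and neither was called. In the list of gluconeogenesis, glycogen and shuttles, Gbe1, the glycogen branching enzyme gene, was the 1 called of 17 tested, where 3.74% of all clusters were called either way, at -1.10, with the glycogen phosphorylase gene Pygl at -0.98. The aspartate shuttle genes Got1 and Got2 were at -0.05 and 0.05.

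Regulators known for glycolytic genes went both ways, with 3 of 17 called lower and 1 higher after both siRNAs, where 2.65% and 1.08% of all clusters were. Txnip, a glucose-responsive brake on glucose uptake, had 453 reads after both siRNAs, 846 after Ptbp1 siRNA and 1974 in the control library, at -1.98 and -1.35, and it shares exon bases with Gm15441. Egln3, a prolyl hydroxylase gene that hypoxia-inducible factors are known to raise, was at -1.16 and -0.44, and Egln1 at -0.63. Arnt, the partner subunit of those factors, was 2.02-fold lower after both siRNAs (1.84 to 2.23), just inside the limit and outside it at -0.94 with library-total scaling, and Hif1a was at -0.22. Myc, a transcription factor known to raise glycolytic genes in other cells, had 1867, 1133 and 893 reads. It was 2.25-fold higher after both siRNAs (2.08 to 2.44), and its part in the differences of the glycolytic members was not tested. Of the splicing factors known to act with PTBP1 on Pkm, Hnrnpa1 was at -0.27 and Hnrnpa2b1 at 0.09. Srsf3, the other Pkm splicing regulator on the list, had 1665, 1530 and 1180 reads. It was 1.52-fold higher after both siRNAs (1.41 to 1.64), at 0.60, and was not called. RNA levels of regulators do not measure their activity.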
